A study of Gorilla gorilla gorilla with 13 samples.

Results

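The insulin, PI3K and mTOR pathway was followed through 8 of its core genes, IGF1R, INSR, PIK3CA, TSC1, TSC2, RHEB, MTOR and RPTOR, which were taken by symbol from the hg38 count table. They are 8 of the 18137 genes in that table, and all 8 were among the 16804 genes that passed the filter on low counts. The RNA came from 13 libraries of gorilla cerebral organoids, self-organising pieces of brain-like tissue that pluripotent stem cells form in culture. Cells had been sorted into BCL11B-positive neurons (N, n = 2), basal intermediate progenitors (bIP, n = 3), basal radial glia (bRG, n = 4) and apical radial glia (aRG, n = 4). Radial glia are neural stem cells, which touch the ventricle when apical and have left its surface when basal, and basal intermediate progenitors are daughter cells that go on to make neurons. The series compared these sorted populations, and for the pathway the question was whether its genes were transcribed at different levels along the lineage. All groups derive from GC1, which is 1 line of induced pluripotent cells, and the labels name no edit and no treatment that sets groups apart. Organoids were 8 weeks old, give or take 3 days, and grew in medium with the B27 supplement, which contains insulin. The labels do not say whether replicate libraries stem from separate cultures, so p-values measure only how these libraries varied, and that variation may be technical.

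Insulin and the insulin-like growth factors bind the receptor kinases INSR and IGF1R, and adaptor proteins then recruit PI3K, whose catalytic subunit p110-alpha is made from PIK3CA. The lipid that PI3K makes brings the kinase AKT to the membrane, and AKT inhibits the complex of TSC1 and TSC2, which otherwise keeps the small GTPase RHEB inactive. Active RHEB switches on mTOR complex 1, built on MTOR and RPTOR, which drives protein synthesis and growth and restrains autophagy. In the developing cortex the pathway is known for setting the growth of progenitors and neurons, and mutations that raise its activity cause malformations of the cortex. Most of its control runs through phosphorylation and lipids, which RNA counts do not measure.

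Total counts per library were 5464721 to 12524938, and the 8 genes together held 0.0961% to 0.147% of them. Smart-seq2 libraries carry no molecular identifiers, so spreads cover counting and library error together. The marker lists separated radial glia from N as labelled, but neither bIP nor bRG libraries led in the summed markers of their own label. Summed over the 9 radial glia markers, levels were 124 to 163 CPM (read counts per library scaled to a common size, with TMM factors) in N, 138 to 168 in bIP, 2436 to 4359 in bRG and 3126 to 4204 in aRG. The 7 neuron markers summed to 5538 to 5663 CPM in N, 3562 to 3864 in bIP, 435 to 703 in bRG and 410.1 to 712 in aRG. The 7 basal intermediate progenitor markers summed to 515 to 574 CPM in N and 363 to 741 in bIP. They summed to 735 to 958 in bRG and 321 to 596 in aRG. EOMES, the defining factor of intermediate progenitors, averaged 6.26 CPM in N, 85.3 in bIP, 367 in bRG and 143 in aRG. The bIP libraries thus did not lead in EOMES. ELAVL4 averaged more in bIP (332 CPM) than in bRG (278) and aRG (176), but most in N (454). NHLH1 and PPP1R17 averaged more in bIP (64.8 and 15.9) than in aRG (29.8 and 13.6), but most in bRG (70.5 and 16.6). NEUROG1, NEUROG2 and INSM1 were lower in bIP than in both radial glia populations. The 6 basal radial glia markers summed to 1142 to 1435 CPM in N, 598 to 916 in bIP, 1193 to 2127 in bRG and 1693 to 2272 in aRG. HOPX, the best known of them, averaged 65.7 CPM in bRG and 149.9 in aRG, and TNC 91.0 and 86.7. Most of the N sum was PTPRZ1 (1161 CPM, against 907 in bRG). The others were lower in N than in bRG. In N, HOPX averaged 4.33 CPM, TNC 7.61, MOXD1 3.69 (67.5 in bRG), LIFR 109 (425) and FAM107A 2.55 (7.35). The 5 Cajal-Retzius markers, which belong to an early-born neuron type, summed to 198 to 235 CPM in N, 1308 to 3461 in bIP, 48.8 to 101 in bRG and 44.2 to 92.6 in aRG. In N most of that sum was CALB2 (143 CPM, against 4.34 in bRG), while TP73 (2.50 against 7.91) and LHX1 (0.983 against 4.17) were lower in N than in bRG. The 7 G2/M genes summed to 95.2 to 111 CPM in N, 88.0 to 134 in bIP, 818 to 1419 in bRG and 2556 to 5066 in aRG. The 6 choroid plexus and hem markers summed to 94.98 to 321 CPM in N, 165 to 308 in bIP, 213 to 1268 in bRG and 1592 to 7808 in aRG. TTR made up most of the aRG sum (mean 4512 CPM). RSPO3 averaged 61.5 CPM in bIP and 36.1 in bRG, against 29.1 in aRG, and LMX1A 12.6 in bRG against 11.1 in aRG. All other means of that list lay below those of aRG. The 6 mesenchyme markers summed to 27.6 to 73.3 CPM in N, 60.3 to 106 in bIP, 69.6 to 97.4 in bRG and 108 to 334 in aRG. DCN averaged 13.8 CPM in N and 15.4 in bIP, against 11.1 in aRG, and PDGFRA 21.2 in bRG against 17.4 in aRG. All other mesenchyme means lay below those of aRG. The part of these differences in the results was not tested. Library 3 of bRG stood apart from the other 12 libraries on the second principal component, and values without it are given where they change a result.

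Among the 4 populations IGF1R was the 1 core gene that passed a test, and the means of the others lay close together. By edgeR's quasi-likelihood test of any difference among the populations, 1 of the 8 genes was called at an adjusted p under 0.05, where 22.5% of all genes tested were called. The highest population mean over the lowest was 1.23 to 1.73 across the 8 genes, with a median of 1.31, against 2.06 over all genes tested. Among the 6960 tested genes averaging 5 or more in log2 CPM, that median was 1.63. In a bulk library, fewer cells of a type and less RNA per cell cannot be told apart, and this holds for each level below.

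**Figure D1:**
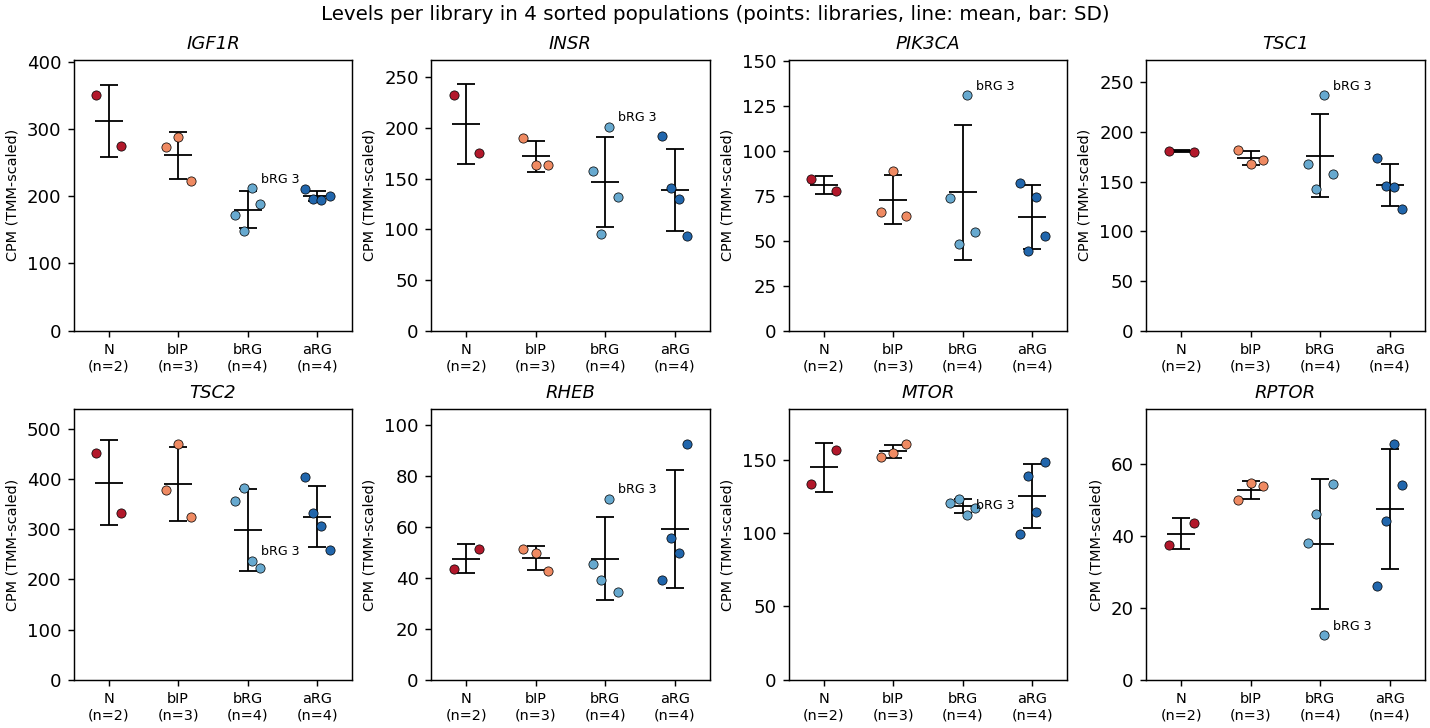
Level of each core gene in CPM after TMM scaling, with each library as a point, the mean as a line and the SD as a bar, for N (n = 2), bIP (n = 3), bRG (n = 4) and aRG (n = 4). IGF1R lies higher in N (274 to 350.1 CPM) than in bRG (148 to 212 CPM), while most other panels overlap. Library 3 of bRG is marked because it lies far from the other bRG libraries for PIK3CA, RHEB, TSC1 and RPTOR.

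IGF1R, the receptor for insulin-like growth factors, was higher in neurons than in basal radial glia. Its level was 350.1 and 274 CPM in N libraries 1 and unnumbered, 273, 288 and 222 CPM in bIP libraries 1 to 3, 172, 148, 212 and 188 CPM in bRG libraries 1 to 4, and 212, 196, 195 and 199.98 CPM in aRG libraries 1 to 4. Both N libraries and all 3 bIP libraries lay above every radial glia library, and N overlapped with bIP, as bRG did with aRG. Means were 312 ± 53.8 CPM in N, 261 ± 34.6 in bIP, 180.0 ± 27.2 in bRG and 201 ± 7.54 in aRG (SD, n = 2, 3, 4 and 4). The order of the means was thus N, bIP, aRG and bRG, and no neighbours in it passed the test, with edgeR adjusted p of 0.898 for N against bIP, 0.253 for bIP against aRG and 0.860 for bRG against aRG.

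IGF1R had a log2 fold change of 0.79 for N against bRG (SE 0.230, 95% interval 0.31 to 1.28, edgeR adjusted p = 0.0201). It was 0.64 for N against aRG (95% interval 0.15 to 1.12, edgeR adjusted p = 0.0615) and 0.54 for bIP against bRG (0.10 to 0.97, adjusted p = 0.0889). For these 2 comparisons the interval left out 0 but the adjusted p did not pass. The test of any difference among the 4 populations gave IGF1R an edgeR adjusted p of 0.0461. The calls were fragile. Without N library 1 the N against bRG log2 fold change was 0.61 with an edgeR adjusted p of 0.228. In a fit of only N and bRG it was 0.76 with an adjusted p of 0.112, and the call stood in 16 of 19 alternatives. Without bRG library 3 the edgeR adjusted p was 0.0308 for bIP against bRG and 0.0242 for N against aRG, both then called. The 8 genes' only call among the 4 populations stood in 4 of 18 alternatives, with edgeR or DESeq2 adjusted p from 0.0100 to 0.221.

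The 3 genes whose level followed IGF1R most closely over the 13 libraries were CLIP3, CAMK1D and ZNF148, with Pearson r on log2 CPM of 0.933, 0.931 and 0.928. They were the highest of 9189 genes searched, and the points share their libraries and populations, so r is a description.

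INSR, the insulin receptor, spread as widely within populations as between them. It measured 232 and 176 CPM in N libraries 1 and unnumbered, 189.8, 163 and 164 CPM in bIP libraries 1 to 3, 158, 95.6, 201 and 132 CPM in bRG libraries 1 to 4, and 192, 141, 129.8 and 93.3 CPM in aRG libraries 1 to 4. Both radial glia populations overlapped with N and with bIP, and the lowest values were bRG library 2 and aRG library 4. The means were 204 ± 39.9 CPM in N, 172 ± 15.2 in bIP, 147 ± 44.6 in bRG and 139 ± 40.7 in aRG (SD). The largest difference was N against aRG, with a log2 fold change of 0.55 (95% interval -0.09 to 1.20, edgeR adjusted p = 0.238), and the test of any difference gave an edgeR adjusted p of 0.487. Reads of IGF1R per read of INSR, a ratio within a library that is not adjusted for gene length, were 1.51 to 1.56 in N, 1.36 to 1.77 in bIP, 1.05 to 1.54 in bRG and 1.10 to 2.14 in aRG. The ratio overlapped between all 4 populations.

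PIK3CA, the catalytic subunit of PI3K, showed no call in any comparison. It stood at 84.3 and 77.4 CPM in N libraries 1 and unnumbered, 66.1, 88.5 and 63.8 CPM in bIP libraries 1 to 3, 73.7, 48.2, 131 and 54.9 CPM in bRG libraries 1 to 4, and 82.2, 44.2, 74.3 and 52.8 CPM in aRG libraries 1 to 4. All populations overlapped, and bRG library 3 was the highest of the 13 libraries. The means were 80.9 ± 4.87 CPM in N, 72.8 ± 13.7 in bIP, 76.9 ± 37.6 in bRG and 63.4 ± 17.8 in aRG (SD). The test of any difference gave an edgeR adjusted p of 0.838. The log2 fold change for bRG against aRG was 0.28 (95% interval -0.35 to 0.91), and without bRG library 3 it was -0.11. PIK3CA had 8110 counts in the hg38 table and was listed at 0 in every library of the gorGor6 table, so no second count of it was had.

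TSC1 and TSC2, the subunits of the complex that restrains RHEB, also gave no call. TSC1 measured 181 and 179.7 CPM in N libraries 1 and unnumbered, 182, 168 and 172 CPM in bIP libraries 1 to 3, 168, 142, 237 and 158 CPM in bRG libraries 1 to 4, and 174, 145, 145 and 123 CPM in aRG libraries 1 to 4. Both N libraries lay above all aRG libraries, and all other pairs of populations overlapped, with bRG library 3 the highest of the 13. Its log2 fold change for N against aRG was 0.30 (95% interval -0.22 to 0.82, edgeR adjusted p = 0.460), and the test of any difference gave 0.689. TSC2 measured 453 and 333 CPM in N libraries 1 and unnumbered, 379, 469 and 324 CPM in bIP libraries 1 to 3, 357, 382, 237 and 222 CPM in bRG libraries 1 to 4, and 405, 332, 306 and 258 CPM in aRG libraries 1 to 4. Its populations all overlapped, and bRG libraries 3 and 4 were the lowest of the 13. Its means were 393 ± 84.8 CPM in N, 391 ± 73.4 in bIP, 299 ± 81.6 in bRG and 325 ± 61.1 in aRG (SD), and the edgeR adjusted p for any difference was 0.573. TSC1 reads per TSC2 read were 0.400 to 0.539 in N, 0.358 to 0.530 in bIP, 0.372 to 0.998 in bRG and 0.430 to 0.475 in aRG, with 0.998 in bRG library 3. In the RefSeq gorilla annotation TSC2 overlaps NTHL1 and lies within 1 kb of PKD1, so reads may be shared where strand was not used.

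RHEB, the GTPase that activates mTOR complex 1, had its highest and its lowest library both among radial glia. It measured 43.5 and 51.4 CPM in N libraries 1 and unnumbered, 51.4, 49.6 and 42.5 CPM in bIP libraries 1 to 3, 45.5, 38.9, 71.0 and 34.5 CPM in bRG libraries 1 to 4, and 39.2, 55.5, 49.6 and 92.3 CPM in aRG libraries 1 to 4. The populations overlapped, aRG library 4 was the highest and bRG library 4 the lowest. The means were 47.5 ± 5.58 CPM in N, 47.8 ± 4.69 in bIP, 47.5 ± 16.3 in bRG and 59.1 ± 23.1 in aRG (SD), and the edgeR adjusted p for any difference was 0.771. RHEB has processed copies in the genome, and its row is uncertain where reads were shared with them. Of the RHEB pseudogene rows of the gorGor6 table, RHEBP1 and RHEBP2 held 0 counts and RHEBP3 held 131, against 12991 for RHEB itself.

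MTOR, the kinase at the centre of both mTOR complexes, varied least of the 8 genes over the 13 libraries, with an SD of log2 CPM of 0.22. It measured 133 and 157 CPM in N libraries 1 and unnumbered, 152, 155 and 161 CPM in bIP libraries 1 to 3, 120.3, 123, 113 and 117 CPM in bRG libraries 1 to 4, and 99.7, 139, 115 and 148 CPM in aRG libraries 1 to 4. All 3 bIP libraries lay above every radial glia library, and both N libraries lay above every bRG library. The means were 145 ± 16.6 CPM in N, 156 ± 4.37 in bIP, 118 ± 4.65 in bRG and 125 ± 22.1 in aRG (SD). The log2 fold change for bIP against bRG was 0.40 (95% interval -0.03 to 0.82, edgeR adjusted p = 0.215), and for bIP against aRG it was 0.31 (-0.12 to 0.74, adjusted p = 0.357). The test of any difference gave MTOR an edgeR adjusted p of 0.430. MTOR overlaps ANGPTL7 in the RefSeq annotation, with the same limit on shared reads. INSR and RPTOR each overlap a protein-coding gene there that has no symbol of its own. IGF1R, TSC1 and PIK3CA each overlap a noncoding RNA gene there and RHEB a pseudogene, with the same limit.

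RPTOR, which makes the scaffold that brings substrates to mTOR complex 1, varied most of the 8 genes, with an SD of log2 CPM of 0.62. It measured 37.6 and 43.8 CPM in N libraries 1 and unnumbered, 50.0, 54.8 and 53.8 CPM in bIP libraries 1 to 3, 38.1, 46.1, 12.4 and 54.5 CPM in bRG libraries 1 to 4, and 26.2, 44.1, 65.5 and 54.2 CPM in aRG libraries 1 to 4. Both N libraries lay below all bIP libraries, all other pairs overlapped, and bRG library 3 was the lowest of the 13. The means were 40.7 ± 4.33 CPM in N, 52.9 ± 2.54 in bIP, 37.8 ± 18.2 in bRG and 47.5 ± 16.7 in aRG (SD). RPTOR had a log2 fold change of -0.38 for N against bIP (95% interval -1.36 to 0.61, edgeR adjusted p = 0.931), and the test of any difference gave 0.751. RPTOR reads per MTOR read were 0.279 to 0.282 in N and 0.329 to 0.354 in bIP. They were 0.110 to 0.465 in bRG, with 0.110 in library 3, and 0.263 to 0.570 in aRG. The level of this ratio depends on the table. On gorGor6 it was 0.163 and 0.164 in N and 0.177 to 0.197 in bIP. RPTOR had 5206 counts in the hg38 table and 5287 in the gorGor6 table, where MTOR had 15191 and 26524.

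Set out by comparison, the core genes gave few differences in either direction. Whether their shares differ from those of all genes was not tested, and 8 genes are few for it. In N against bRG 1 of 8 was called higher and none lower, where 19.8% of all genes were called, 10.6% of all genes higher. Of the 8, 1 had an unadjusted p under 0.05, against 32.4% of all genes. The median log2 fold change of the 8 genes was 0.20, against -0.09 over all genes tested. All 8 values were above 0, but with DESeq2 size factors TSC1 (-0.02) and RHEB (-0.05) were below it. IGF1R and MTOR, 2 of the 8, did not overlap between N and bRG, where 36.5% of all genes did not.

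For N against aRG edgeR called 0 of 8 genes, beside 19.8% of all genes, with 1 at an unadjusted p under 0.05 (30.5% of all genes) and 1 called by DESeq2, IGF1R in both. Ranges did not overlap for IGF1R and TSC1, 2 of the 8, against 44.1% of all genes, and the median log2 fold change was 0.29, against -0.05 over all genes. For bIP against bRG edgeR called 0 of 8, beside 16.7% of all genes, with 1 at an unadjusted p under 0.05 (28.5% of all genes) and 1 called by DESeq2, again IGF1R. IGF1R and MTOR did not overlap, 2 of the 8 against 26% of all genes, and the median was 0.31, against -0.09. For bIP against aRG edgeR called 0 of 8, beside 18.4% of all genes, with 0 at an unadjusted p under 0.05 (28.4% of all genes) and 0 by DESeq2. The same 2 genes, IGF1R and MTOR, did not overlap there, against 32.4% of all genes, and the median was 0.25, against -0.04. These comparisons share libraries and are not independent of each other.

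Between neighbouring populations the counts were as low, but few of all genes were called there. With so few calls, 0 of 8 does not set the core genes apart. For bRG against aRG edgeR called 0 of 8 genes, beside 1.26% of all genes, with 0 at an unadjusted p under 0.05 (9.47% of all genes) and 0 by DESeq2, and 0 of 8 did not overlap, against 5.52%. For N against bIP edgeR called 0 of 8, beside 0.113% of all genes, with 0 at an unadjusted p under 0.05 (6.64% of all genes) and 0 by DESeq2, and RPTOR alone did not overlap, against 31% of all genes. Missing the threshold does not show equal levels, and the intervals give the range. Of the 48 intervals, for 8 genes and 6 comparisons, 37 lay within 1 log2 unit on either side of 0. All 6 intervals did so for MTOR, TSC1 and TSC2, and 1 of 6 did for RPTOR, whose ends reached -1.36 and 1.30.

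**Figure D2:**
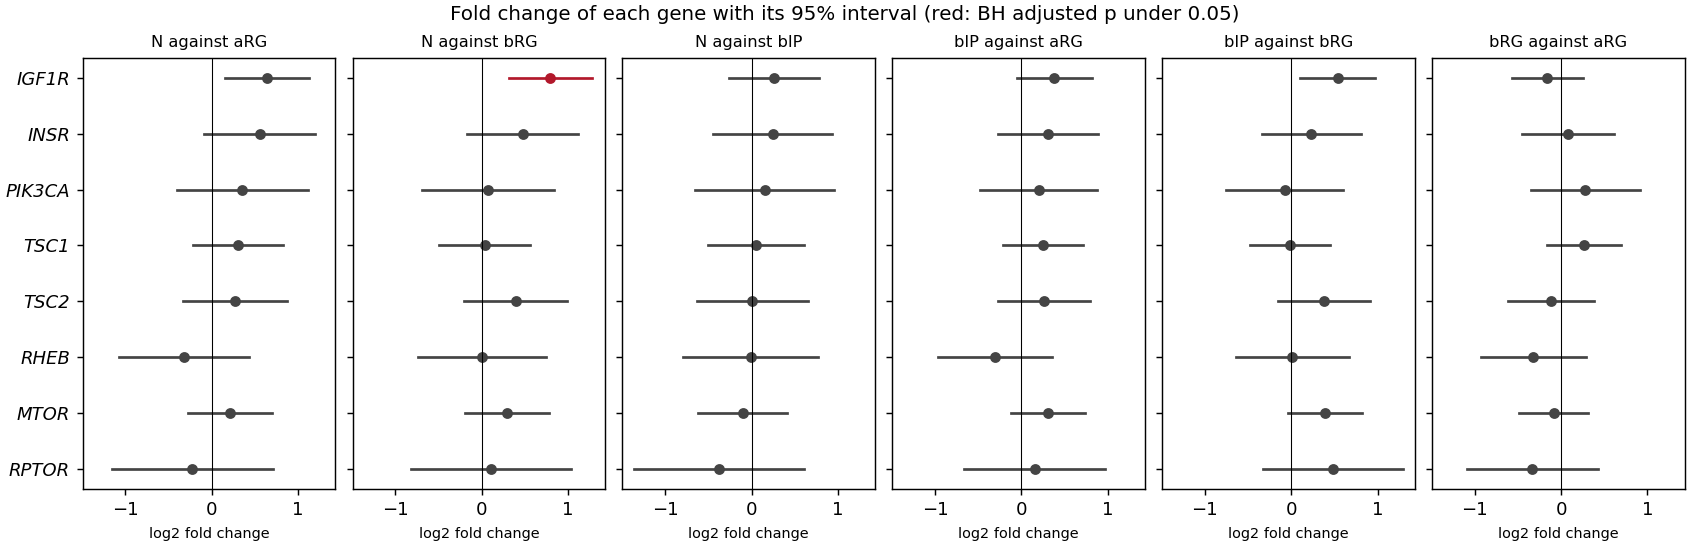
Log2 fold change (points) with its 95% interval (lines) for each core gene in the 6 comparisons between populations, first population over second, from the edgeR fit of all 13 libraries. The 1 call, in red, is IGF1R in N against bRG (0.79), and the widest intervals belong to RPTOR.

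Single libraries moved several core genes by more than the populations did. In bRG library 3, RPTOR differed from the mean of the other bRG libraries by -1.87 in log2 CPM, while PIK3CA lay 1.17 above it. RHEB differed by 0.85, INSR by 0.68, TSC1 by 0.60, TSC2 by -0.39, IGF1R by 0.33 and MTOR by -0.10. Of the 8 genes 5 differed by over 0.5 there, against 69.8% of all genes tested, and 2 by over 1, against 42.7%. MALAT1, a nuclear noncoding RNA, took 21.3% of the gorGor6 counts of that library and 6.35% to 10.8% in the others, and its part in these values was not tested. Without that library, the log2 fold changes for bRG against aRG were -0.04 for RPTOR (-0.33 with it), -0.58 for RHEB (-0.32), -0.11 for INSR (0.08) and 0.09 for TSC1 (0.26), and none was called by edgeR. For N against bRG, IGF1R was at 0.88 without it (edgeR adjusted p = 0.00536). The difference of bRG from aRG also changed with the libraries taken. In mean log2 CPM, RPTOR differed by 0.30 over libraries 1 and 2 and by -1.19 over libraries 3 and 4. INSR differed by -0.42 and 0.56 over the same sets. The set of libraries 3 and 4 contains bRG library 3, so its values are not separate from that library's departure. In bRG library 4, RPTOR (5.78) lay between aRG libraries 4 (5.77) and 3 (6.04). INSR in bRG library 4 (7.04) lay above aRG libraries 3 (7.02) and 4 (6.55). Within aRG, library 1 was the highest and library 4 the lowest for INSR, TSC1 and TSC2, and the reverse held for RHEB and MTOR.

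**Figure D3:**
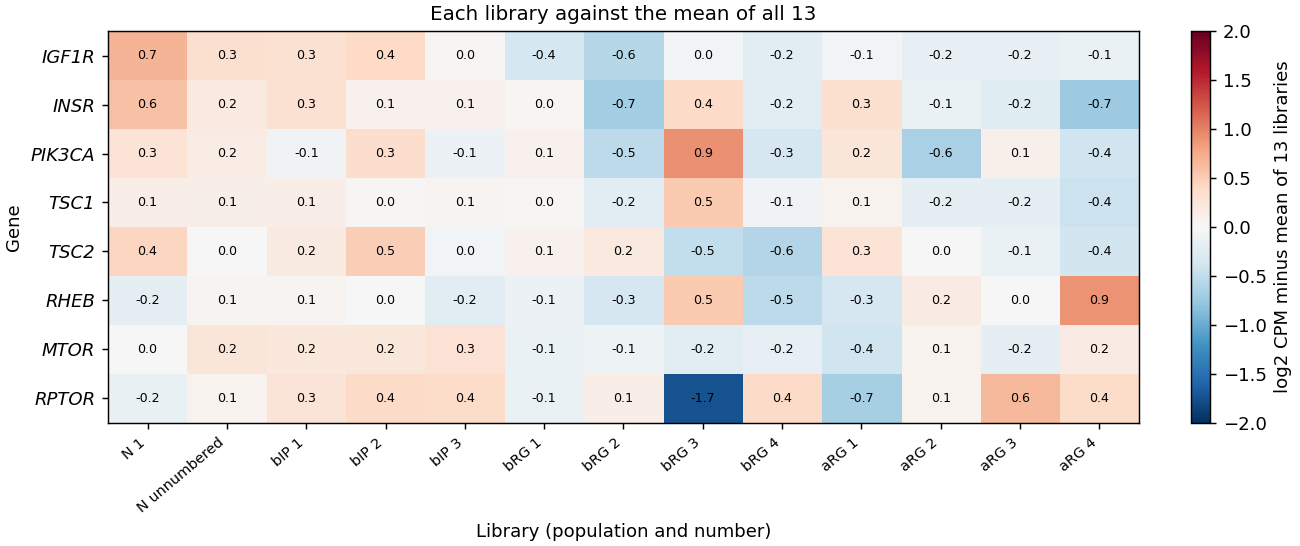
Log2 CPM of each core gene in each library minus its mean over the 13 libraries, as a coloured and numbered grid with genes in rows and libraries in columns, from N on the left to aRG on the right. The largest departure is RPTOR in bRG library 3, and IGF1R is above its mean in N library 1 and below it in bRG libraries 1 and 2.

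Around the core, 112 other genes of the pathway were listed in 7 groups by role, of which 105 passed the filter on low counts. By edgeR's test of any difference among populations, 27 of the 105 were called (25.7%), beside the 22.5% of all genes. In N against bRG 15 rose and 8 fell (21.9% of the 105 called), where 10.6% of all genes rose and 9.13% fell. In N against aRG 17 rose and 9 fell (24.8%), where 10.4% of all genes rose and 9.37% fell. In bIP against aRG 13 rose and 10 fell (21.9%), where 8.47% of all genes rose and 9.98% fell, and in bIP against bRG 11 rose and 9 fell (19.0%), where 8.25% rose and 8.44% fell. The pathway's shares were thus near those over all genes. For bRG against aRG edgeR called 0 of 105, beside 1.26% of all genes, with 11 at an unadjusted p under 0.05 (9.47% of all genes) and 0 by DESeq2. For N against bIP it called 0 of 105, beside 0.113% of all genes, with 6 at an unadjusted p under 0.05 (6.64% of all genes) and 0 by DESeq2. N against bRG and bIP against aRG share no library, though they come from 1 fit. Each called 23 genes, 17 of them in common, which is 73.9% of either list, and all 17 had the same sign in both. Over all genes 2050 calls were in common, 61.7% of those for N against bRG and 66.1% of those for bIP against aRG, and 2045 of them had the same sign. The neuron and G2/M markers given above move with both comparisons, and all 5 Cajal-Retzius markers with bIP against aRG. The choroid plexus and hem sum, most of it TTR in aRG, and the mesenchyme sum move with the comparisons against aRG. Within them RSPO3 and DCN went the other way in bIP against aRG. The part of all these markers was not tested.

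Ligands and the proteins that bind them gave 2 genes higher and 2 lower of 6 tested for N against bRG, and 1 higher and 2 lower for bIP against aRG. These are 66.7% and 50.0% of few genes, beside 19.8% and 18.4% of all genes. The median log2 fold change was -0.33 in the first and -0.25 in the second, against -0.09 and -0.04 over all genes. IGFBP2, a binding protein of insulin-like growth factors, measured 89.6 and 84.8 CPM in N libraries 1 and unnumbered and 283, 121, 273 and 252 CPM in bRG libraries 1 to 4. Every N library lay below every bRG library, and the log2 fold change was -1.41 (edgeR adjusted p = 0.00435, SE 0.323). In bIP it averaged 67.8 ± 9.01 CPM, against 232 ± 37.8 in aRG, a log2 fold change of -1.77 (edgeR adjusted p = 0.000163). IGFBP4, another binding protein, fell by 1.73 on the log2 scale for N against bRG and by 2.54 for bIP against aRG. IGFBP5 rose by 1.22 for N against bRG, and IGFBPL1, a related secreted protein, by 1.16 there and by 1.36 for bIP against aRG. Of the calls for N against bRG, those of IGFBP4, IGFBP5 and IGFBPL1 were lost without either N library, and that of IGFBP2 without the unnumbered N library (edgeR adjusted p = 0.0675). The IGFBPL1 row is uncertain, with 42465 counts in the hg38 table and 3008 in the gorGor6 table. IGF1, the ligand of IGF1R, averaged 3.29 ± 0.0311 CPM in N, 6.64 ± 0.918 in bIP, 9.41 ± 4.21 in bRG and 15.4 ± 9.15 in aRG (SD), and fell in N against aRG by 2.22 on the log2 scale (edgeR adjusted p = 0.0198). That call was lost without aRG library 1 (edgeR adjusted p = 0.0544) or either N library, and on the gorGor6 table (0.0904). IGF1 was singled out after its values were seen. INS (8 counts over all libraries), IGF2 (31), IGFBP1 (43) and IGFBP6 (68) did not pass the filter.

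Of the 9 other receptors and adaptors tested, 1 fell for N against bRG and 2 fell for bIP against aRG, and none rose. The shares called, 11.1% and 22.2%, stand beside 19.8% and 18.4% of all genes. GAB1, a docking protein for PI3K, was the 1 called for N against bRG, with 15.7 ± 0.513 CPM in N and 54.5 ± 21.7 in bRG, a log2 fold change of -1.79 (edgeR adjusted p = 0.00894, SE 0.455). That call was lost without either N library. GAB1 fell by 1.78 for bIP against aRG, and GRB10, an inhibitory adaptor of both receptors, by 1.02, a call that was lost without bIP library 1. The group's median log2 fold change was -0.59 for N against bRG and -0.39 for bIP against aRG, against -0.09 and -0.04 over all genes.

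Beside PIK3CA, 2 of the 10 other PI3K subunits tested were higher both for N against bRG and for bIP against aRG, and none was lower. That is 20.0% in each, near the shares of all genes called. PIK3CD, the catalytic subunit p110-delta, measured 38.0 and 54.5 CPM in N libraries 1 and unnumbered, 46.4, 36.1 and 34.3 CPM in bIP libraries 1 to 3, 10.4, 16.1, 15.8 and 12.5 CPM in bRG libraries 1 to 4, and 6.50, 13.7, 8.71 and 8.66 CPM in aRG libraries 1 to 4. All N and bIP libraries lay above all radial glia libraries. The log2 fold change was 1.75 for N against bRG (edgeR adjusted p = 0.00129, SE 0.344) and 2.05 for bIP against aRG (SE 0.319, adjusted p = 0.000136). PIK3R3, the regulatory subunit p55-gamma, measured 241 and 196 CPM in N libraries 1 and unnumbered and 70.2, 102, 96.5 and 64.8 CPM in bRG libraries 1 to 4. The ranges did not overlap, and the log2 fold change was 1.39 (edgeR adjusted p = 0.000596, SE 0.250). For bIP against aRG it was 0.68 (edgeR adjusted p = 0.0447, SE 0.227), a call lost when any of 9 single libraries was left out. Both calls for N against bRG stood when either N library was left out.

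In the AKT branch, 2 of 11 genes were higher and 2 lower, the same 4 in N against bRG and in bIP against aRG. That is 36.4% of few genes, beside 19.8% and 18.4% of all genes called. INPP4A, a phosphatase of the lipid made from the PI3K product, rose by 0.98 in both comparisons, and without the unnumbered N library its edgeR adjusted p for N against bRG was 0.173. PHLPP1, a phosphatase that removes phosphate from AKT, fell by 1.45 for N against bRG and by 1.40 for bIP against aRG, with an edgeR adjusted p of 0.0756 for N against bRG without N library 1. INPPL1, the lipid phosphatase SHIP2, fell by 3.68 and 3.80 in the same comparisons, but its row is uncertain, with 1846 counts in the hg38 table and 55 in the gorGor6 table.

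**Figure D4:**
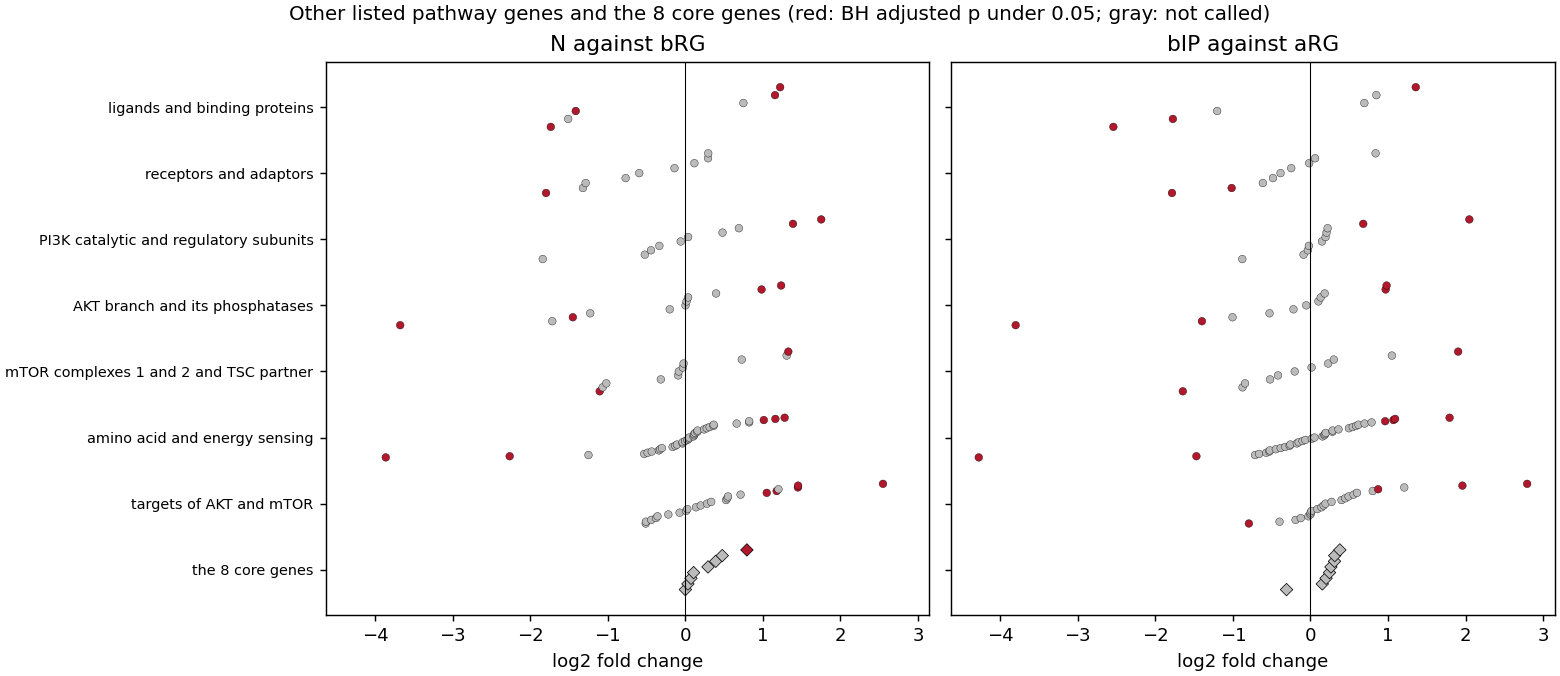
Log2 fold change of the 105 other pathway genes tested (circles, in their 7 groups) and of the 8 core genes (diamonds), for N against bRG on the left and bIP against aRG on the right, with calls at a BH adjusted p under 0.05 in red. The core genes lie between 0.00 and 0.79 on the left and between -0.31 and 0.38 on the right. Called genes of the other groups reach -3.86 (DDIT4L) and 2.55 (FOXO6) on the left, both with few counts.

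Among the 11 other parts of the mTOR complexes and the TSC partner, 1 gene rose and 1 fell in each of both comparisons, 18.2% of the group and near the shares of all genes called. TBC1D7, the third subunit of the TSC complex, averaged 59.1 ± 12.8 CPM in N and 23.5 ± 5.63 in bRG, a log2 fold change of 1.33 (edgeR adjusted p = 0.00465, SE 0.307). Counted on the gorGor6 table it was 0.82 with an edgeR adjusted p of 0.284, and without the unnumbered N library the edgeR adjusted p was 0.103. PRR5, a subunit of mTOR complex 2, rose by 1.90 for bIP against aRG, with 14.8 ± 2.56 CPM in bIP and 3.92 ± 0.855 in aRG (SD). TTI1, which helps assemble mTOR and related kinases, fell by 1.10 for N against bRG, a call lost without the unnumbered N library, and by 1.65 for bIP against aRG (edgeR adjusted p = 5.32e-05).

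Of the 35 genes of amino acid and energy sensing tested, 3 rose and 2 fell for N against bRG, and 4 rose and 2 fell for bIP against aRG. These are 14.3% and 17.1% of the group, no more than the shares of all genes called. NPRL3, a subunit of the GATOR1 complex that restrains mTOR complex 1 when amino acids are scarce, rose by 1.01 for N against bRG and by 0.96 for bIP against aRG. NPRL2, another GATOR1 subunit, rose by 1.09 for bIP against aRG, with 229 ± 22.8 CPM in bIP and 107 ± 23.8 in aRG. PRKAG2, a regulatory subunit of the energy sensor AMPK, averaged 154 ± 37.9 CPM in N and 68.7 ± 18.8 in bRG, and 175 ± 38.7 in bIP and 50.5 ± 15.4 in aRG (SD), rises of 1.16 and 1.79 on the log2 scale. Without N library 1 the edgeR adjusted p for N against bRG was 0.108 for NPRL3, 0.168 for PRKAG2 and 0.104 for DDIT4L. DDIT4L, an inhibitor of mTOR complex 1, fell by 3.86 and 4.28 in the same comparisons, with few counts, 500 over the 13 libraries. N library 1 held 0 of them and the unnumbered N library 8, and the log2 fold change for N against bRG was -2.96 without N library 1 and -8.66 without the unnumbered one, where N has no count and the value is no bound. RRAGD, a GTPase that places mTOR complex 1 on the lysosome, fell by 2.26 for N against bRG, a call lost without the unnumbered N library, where it was -1.62.

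Targets of AKT and mTOR gave 5 genes higher and 0 lower of 23 tested for N against bRG, and 3 higher and 1 lower for bIP against aRG. The shares called, 21.7% and 17.4%, were near those of all genes. ATG13, part of the kinase complex that starts autophagy and is held back by mTOR complex 1, measured 105 and 104 CPM in N libraries 1 and unnumbered, 156, 129 and 135 CPM in bIP libraries 1 to 3, 33.8, 43.3, 29.7 and 45.9 CPM in bRG libraries 1 to 4, and 26.7, 39.0, 41.0 and 37.2 CPM in aRG libraries 1 to 4. Every N and bIP library lay above every radial glia library. The log2 fold change of ATG13 was 1.45 for N against bRG (edgeR adjusted p = 0.000532, SE 0.258) and 1.96 for bIP against aRG (SE 0.237, adjusted p = 1.02e-05). EIF4EBP1, a repressor of translation that mTOR complex 1 inactivates, measured 44.5 and 43.6 CPM in N libraries 1 and unnumbered and 16.1, 13.4, 15.8 and 19.1 CPM in bRG libraries 1 to 4, a log2 fold change of 1.45 (edgeR adjusted p = 0.00239, SE 0.307). GSK3B, a kinase that AKT inhibits, averaged 145 ± 9.51 CPM in N and 64.0 ± 13.7 in bRG, a log2 fold change of 1.18 (edgeR adjusted p = 0.00187). The N against bRG calls of ATG13, EIF4EBP1 and GSK3B stood without either N library. FOXO6, a transcription factor that AKT inhibits, averaged 4.31 ± 1.35 CPM in N and 0.732 ± 0.369 in bRG, a log2 fold change of 2.55. Its counts were few, 43 and 36 in N libraries 1 and unnumbered and 6, 9, 2 and 7 in bRG libraries 1 to 4. That call was lost without either N library, in a fit of only N and bRG (edgeR adjusted p = 0.115) and without bRG library 4 (0.0541). LPIN1, a phosphatidate phosphatase under mTOR control, rose by 0.87 for bIP against aRG, a call lost without bIP library 1 or bIP library 2. EIF4EBP2, a second repressor of the same kind, was 0.79 lower there, a log2 fold change of -0.79 (edgeR adjusted p = 0.0455), a call lost when any of 9 single libraries was left out.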

How the data were processed

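The authors deposited raw read counts per gene symbol, 1 table on the human build hg38 and 1 on gorGor6, a build known only from its table's name. Per the submitters' processing notes, STAR and hg38 were used, in no stated role or version, and the sources used here give no annotation, counter or strand setting. Per the labels' protocols, RNA of 10000 cells was amplified by 12 to 17 cycles of PCR. A gorGor6 row with a blank name (0.00351% to 0.00768% of counts) stayed out of totals and tests. A neuron column whose number no neuron label bears was used as the unnumbered N library.

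The hg38 counts of 13 libraries were fitted once with edgeR 4.0.16 in R 4.3.3 (quasi-likelihood, TMM, filterByExpr with a minimum count of 10), with a mean per population and so 1 shared spread. P-values were Benjamini-Hochberg adjusted over 16804 genes and called under 0.05, and standard errors come from the fold change and its F. The scripts were tested on simulated data. Log2 CPM used a prior count of 2. Chi-square per degree of freedom between libraries of 1 population was 10.6 to 92.4, so none was a duplicate. The labels do not say that replicate numbers pair libraries, so the fit has no block, though a pairing may exist.

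Members and gene lists were chosen with earlier results of these data known. Named are all 8 core genes, up to 4 called genes with the smallest p per list for N against bRG and bIP against aRG, and the 3 genes most like a core gene called among the 4 populations (mean log2 CPM of at least 4). Alternatives were DESeq2 1.42.0, its size factors, no filter, the gorGor6 table, a block on the number, fits of 2 populations, and leaving out each library. SAMTOR and TFE3 were not analysed here, and some listed genes that the rule names are not reported here. No sequence was used, so none is shown. RefSeq gene neighbours come from assembly NHGRI_mGorGor1-v2.1_pri.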

Additional observations from a re-analysis of the deposited data

How the results depend on the processing

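The count of core genes called for any difference among the 4 populations was 1, and 0 with DESeq2 size factors, on the gorGor6 table and with the replicate block, and 0 to 1 when each library was left out. For N against bRG it was 1, and 0 with the replicate block and in a fit of only those 2 populations, and 0 to 1 over the libraries left out (0 without N library 1). For bIP against bRG and for N against aRG it was 0, and 1 with DESeq2 in each, and 0 to 1 over the libraries left out (1 without bRG library 3). The other 3 comparisons had 0 calls under every alternative run. The numbers were not taken to pair the libraries, since the labels do not say that they do. Of 10 same-numbered pairs, 5 had a correlation of deviations over 0.1 (from -0.0127 to 0.387), and only bRG 3 with aRG 3 was negative. Differently numbered pairs ran from -0.280 to 0.212. Within numbers 1 and 2, or within 3 and 4, they were positive except bRG 2 with aRG 1 (-0.124). Across these sets they were negative except bRG 3 with aRG 1 (0.108). These values do not show that the numbers are unpaired, and a fit without a block would miss a pairing. The block drops the unnumbered N library. With it IGF1R in N against bRG was 0.95 (edgeR adjusted p = 0.0749), and 9 of the 21 pathway calls named by the rule there were lost, PIK3CD (1.64, edgeR adjusted p = 0.0519) among them. Leaving out a neuron library leaves 1, assumed to vary like the other populations.

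Log2 fold changes of core genes turned sign only where no test called them, and PIK3CA, at 0 on gorGor6, gave no value there. INSR in bRG against aRG was -0.00573 on gorGor6 and -0.11 to 0.27 over the libraries left out. PIK3CA ranged from -0.11 to 0.45 for bRG against aRG, from -0.25 to 0.31 for bIP against bRG and from -0.0976 to 0.46 for N against bRG. Over the same libraries, MTOR ranged from -0.18 to 0.0249 for bRG against aRG and from -0.22 to 0.0131 for N against bIP. RPTOR ranged from -0.0462 to 0.35 for bIP against aRG and from -0.19 to 0.34 for N against bRG. TSC1 in bIP against bRG was 0.0938 on gorGor6 and -0.11 to 0.16. In N against bIP it was -0.000765 with DESeq2, -0.000839 with its size factors, -0.0437 in the 2-population fit and -0.0189 to 0.0868. In N against bRG it was -0.0193 with DESeq2 and with its size factors, -0.0529 with the block, -0.00238 in the 2-population fit and -0.0574 to 0.21. TSC2 ranged from -0.26 to 0.00266 for bRG against aRG. In N against bIP it was -0.0423 with DESeq2 and its size factors, -0.0843 on gorGor6, -0.0870 in the 2-population fit and -0.23 to 0.22. RHEB ranged from -0.46 to 0.0147 for bIP against aRG and from -0.12 to 0.27 for bIP against bRG. In N against bIP it was 0.00207 on gorGor6 and -0.13 to 0.11. In N against bRG it was -0.0534 with DESeq2, -0.0535 with its size factors, -0.0351 in the 2-population fit and -0.13 to 0.26. The cause was not tested.

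Counts over all genes moved too. In bRG against aRG 211 genes were called, 374 with DESeq2 and 131 without aRG library 4. In N against bIP it was 19, then 169 with DESeq2, 48 in the 2-population fit, 1 with the block and 0 to 70 over the libraries left out. In N against bRG it was 3321, then 2027 in the 2-population fit, 1822 with the block and 1698 to 4500. In N against aRG it was 3320, then 1988 with the block and 1903 to 4470. Of 798 recounts of the pathway groups, 717 stayed within 1.5 times.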
